A study of Mus musculus with 16 samples.

Results

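The 9 genes described here, Pecam1, Cdh5, Eng, Emcn, Vwf, Kdr, Flt1, Tek and Tie1, are standard identity genes of endothelial cells, the cells that line blood vessels. They were listed by name as endothelial genes, with earlier results of these data known. All 9 were among the 13733 genes listed and the 13173 genes tested. Bulk RNA-seq libraries were made from cells of the right knee joint of 16 male mice, 4 in each of 4 groups. WT mice were C57BL/6J and Trem2-/- mice carried the Trem2em2Adiuj allele on the same background, so that the macrophage receptor gene Trem2 was disrupted in every cell of the body. D0 joints were uninjured, and D7 joints were collected 7 days after a single tibial compression, given at 10 weeks of age, that ruptures the anterior cruciate ligament. The labels of the samples instead give an age of 16 weeks, and their extraction text speaks of whole homogenized joints from control and T1DM (diabetic) animals, whereas the methods describe cells released by enzyme digestion, and these accounts were not reconciled here. The methods refer for the cells to the single-cell preparation, which lysed red cells and parted CD45+ from CD45- cells on magnetic beads, and whether the bulk libraries hold one fraction or both is not given in the sources used here. Pan-leukocyte genes and the endothelial genes were both present in every library. In such bulk samples fewer cells of a type and less RNA per cell cannot be told apart. Values are CPM, read counts that the authors scaled to a common library size with TMM factors, and 3 reads were worth 0.101 to 0.25 CPM, far below every value of the 9 genes, whose lowest count was 989 reads. Neither the labels nor the methods name a batch, and p-values measure the spread between these mice only.

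Endothelial cells are told from other cells by the proteins that hold them together and by the receptors through which they read growth signals. Cdh5 and Pecam1 seal the junctions between neighbouring cells, the VEGF receptors Kdr and Flt1 drive and restrain sprouting, the angiopoietin receptor Tek with its partner Tie1 keeps vessels quiescent, and Eng hands BMP ligands to the receptor ALK1. In the knee, such vessels run through the synovium, the fat pad, the ligaments and the bone next to the cartilage, while healthy articular cartilage has none. Members of the ETS family of transcription factors, such as Erg and Fli1, bind DNA around a GGAA core and are known regulators of many endothelial genes.

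Because the 9 genes moved together from mouse to mouse, as described further on, the DNA just before their start sites is shown for 4 of them. Flt1 and Emcn are shown because their levels relative to the other members differed between groups, and Tie1 and Tek because they are paired receptors whose levels ran closely together. Each line holds the 250 bases before the RefSeq start site in build GRCm38.p6, 5′ to 3′ on the strand of the gene, and capitals mark GGAAG or CTTCC, the same letters on the other strand. Flt1 lies at chr5:147726012-147726261 on the minus strand, Emcn at chr3:137340828-137341077 on the plus strand, Tie1 at chr4:118489850-118490099 on the minus strand and Tek at chr4:94739039-94739288 on the plus strand.
Flt1: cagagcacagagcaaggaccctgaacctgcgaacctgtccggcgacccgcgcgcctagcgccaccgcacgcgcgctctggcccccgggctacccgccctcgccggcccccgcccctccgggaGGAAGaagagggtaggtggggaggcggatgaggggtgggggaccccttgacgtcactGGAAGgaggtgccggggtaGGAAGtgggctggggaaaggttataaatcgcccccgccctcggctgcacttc
Emcn: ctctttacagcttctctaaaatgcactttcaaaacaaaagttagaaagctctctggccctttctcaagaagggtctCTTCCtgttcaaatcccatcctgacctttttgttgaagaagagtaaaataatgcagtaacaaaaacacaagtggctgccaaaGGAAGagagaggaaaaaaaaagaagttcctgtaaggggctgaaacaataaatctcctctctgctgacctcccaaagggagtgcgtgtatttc
Tie1: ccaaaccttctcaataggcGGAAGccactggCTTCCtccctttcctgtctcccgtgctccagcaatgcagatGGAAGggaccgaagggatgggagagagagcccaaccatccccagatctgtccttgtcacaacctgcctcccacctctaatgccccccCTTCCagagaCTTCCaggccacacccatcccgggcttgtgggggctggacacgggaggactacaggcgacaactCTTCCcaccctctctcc
Tek: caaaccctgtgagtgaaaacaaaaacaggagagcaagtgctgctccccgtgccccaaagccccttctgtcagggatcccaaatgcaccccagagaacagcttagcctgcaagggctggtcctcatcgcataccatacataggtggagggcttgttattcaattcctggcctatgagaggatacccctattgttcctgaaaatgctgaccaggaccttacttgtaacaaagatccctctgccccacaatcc
The promoters of 6 members were in the table, and Pecam1, Cdh5 and Vwf were not among them. GGAAG on either strand was found 6 times before Tie1, 3 times before Flt1, 2 times each before Emcn and Eng, once before Kdr and not before Tek. Of 27025 mouse promoter stretches of this length, 63.6% held the motif at least once and 10.5% held it 3 times or more. A match to these letters is a description of the sequence.

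Pecam1 (chr11:106654217-106750628, minus strand) encodes CD31, an adhesion molecule of endothelial junctions that platelets and leukocytes also carry. Uninjured WT mice had 1045, 407, 642 and 491 CPM, and uninjured Trem2-/- mice 476, 834, 514 and 844 CPM. At D7 it was 525, 682, 829 and 586 CPM in WT and 639, 782, 649 and 855 CPM in Trem2-/-. WT D0 replicate 1 stood highest of all 16 mice, WT D0 replicate 2 lowest, and the 4 groups overlapped.

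Cdh5 (chr8:104101625-104144511, plus strand) encodes VE-cadherin, the cadherin of endothelial adherens junctions. Uninjured joints gave 829, 314, 448 and 384 CPM in WT and 311, 472, 397 and 736 CPM in Trem2-/-. Injured joints gave 386, 523, 644 and 461 CPM in WT and 510.4, 649, 512 and 722 CPM in Trem2-/-. In Trem2-/- mice the 4 D7 values lay above 3 of the D0 values and below D0 replicate 4, which alone made the groups overlap, and in WT mice the D7 values lay inside the D0 range.

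Emcn (chr3:137341067-137432185, plus strand) encodes endomucin, a sialomucin on the surface of capillary and venous endothelium. Its D0 levels were 186, 59.2, 103 and 83.4 CPM in WT and 68.1, 120.2, 67.7 and 131 CPM in Trem2-/-. Its D7 levels were 87.5, 124, 133 and 81.4 CPM in WT and 121, 146, 98.1 and 142 CPM in Trem2-/-. The mean went from 96.8 ± 33.7 to 127 ± 22.1 CPM (SD, n = 4) in Trem2-/- mice, with overlapping ranges.

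Eng (chr2:32646595-32682669, plus strand) encodes endoglin, the co-receptor that presents BMP9 and TGF-beta family ligands to ALK1. Across D0 mice it measured 632, 225, 364 and 334 CPM in WT and 316, 455, 380.4 and 601 CPM in Trem2-/-. Across D7 mice it measured 399, 468, 507 and 409.9 CPM in WT and 478, 535, 451 and 525 CPM in Trem2-/-. All 8 injured mice lay between 399 and 535 CPM, inside the range of the uninjured ones. Its exons share 61 bases, 1.51% of their length, with the gene Fpgs, which is read the other way. Whether counting used the strand of a read is not given in the sources used here.

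Vwf (chr6:125546774-125686679, plus strand) encodes von Willebrand factor, which endothelial cells store and release for platelet capture and which megakaryocytes also make. Before injury WT joints had 589, 205, 331 and 247 CPM, and Trem2-/- joints 316, 416, 327 and 582 CPM. In injured joints the values were 252, 335, 398 and 294 CPM and 299, 404, 299.7 and 452 CPM. The 10 other genes of the megakaryocyte and platelet list summed to 46.1 to 91.9 CPM in WT D0, 33.4 to 69.2 in WT D7, 35.0 to 110.2 in Trem2-/- D0 and 40.5 to 49.6 in Trem2-/- D7 libraries, below the Vwf value of every mouse, and only Treml1 was at 0, in 1 library. Their part in the level of Vwf was not tested.

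Kdr (chr5:75932827-75978458, minus strand) encodes VEGFR2, the main signalling receptor for VEGF. D0 levels came to 444, 164, 224 and 146 CPM in WT and 126, 328, 168 and 340.2 CPM in Trem2-/-. After injury they came to 204, 201, 276 and 199 CPM in WT and 187, 242, 196 and 245 CPM in Trem2-/-. The injured mice of both genotypes lay within the span of the uninjured mice, and the group means differed by less than the SD of either D0 group.

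Flt1 (chr5:147561604-147726011, minus strand) encodes VEGFR1, which binds VEGF tightly, signals weakly and in its soluble form acts as a decoy. WT mice had 566, 223, 328 and 229 CPM at D0 and 259, 253, 326 and 279 CPM at D7. Trem2-/- mice had 269.6, 519.9, 337 and 543 CPM at D0 and 258, 298, 254 and 345 CPM at D7. The Trem2-/- mean was 417 ± 135 CPM before and 289 ± 42.2 CPM after injury (SD, n = 4), and the highest D7 mouse still exceeded the lowest 2 D0 mice.

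Tek (chr4:94739289-94874976, plus strand) encodes TIE2, the receptor for the angiopoietins, which early blood progenitors also express. D0 joints gave 204, 66.7, 98.6 and 69.8 CPM in WT and 66.5, 174, 98.2 and 161 CPM in Trem2-/-. D7 joints gave 100.3, 103, 126 and 86.2 CPM in WT and 102, 113, 97.9 and 140.4 CPM in Trem2-/-. The D7 mice of both genotypes lay inside the range of their own D0 group.

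Tie1 (chr4:118471191-118490061, minus strand) encodes the partner of TIE2, a receptor that modulates TIE2 signalling. Its D0 values were 437, 169, 269 and 199.8 CPM for WT and 173, 393, 226 and 396 CPM for Trem2-/-. Its D7 values were 209.5, 273, 296 and 226 CPM for WT and 272, 325, 252 and 336 CPM for Trem2-/-. In the uninjured Trem2-/- mice the values fell into a low pair and a high pair, and the injured Trem2-/- mice lay between these pairs.

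**Figure D1:**
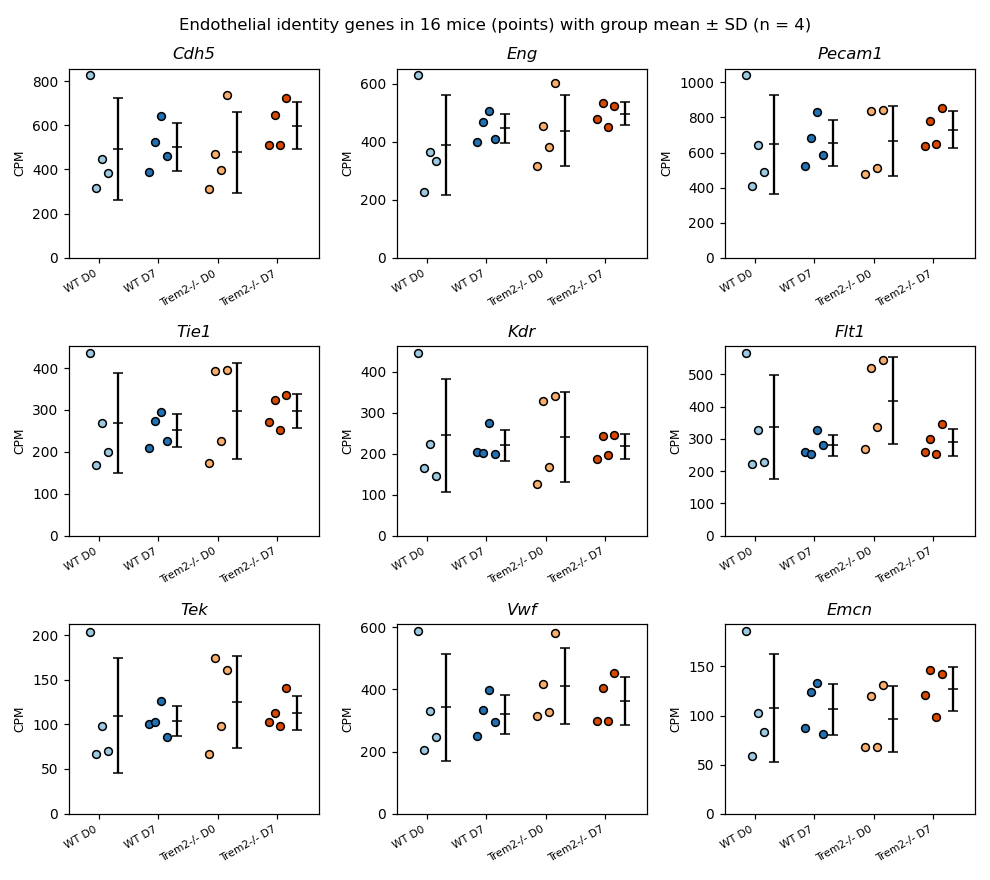
CPM of each of the 9 genes (vertical axis, starting at 0) in every mouse of the 4 groups (horizontal axis), with points for mice and a bar for the group mean ± SD (n = 4). The D0 groups are spread more widely than the D7 groups in all 9 panels, WT D0 replicate 1 is the highest point of every panel, and no group lies apart from the others.

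Per kilobase of exon, the scale on which genes can be set beside each other, the highest mean levels over the 16 libraries were those of Cdh5 at 123.4 ± 37.0, Eng at 109.3 ± 26.3 and Pecam1 at 108.4 ± 28.2 CPM per kb (SD, n = 16). Tie1 followed at 56.6 ± 16.4 CPM per kb. The remaining genes were close together, with Kdr at 25.5 ± 9.12, Flt1 at 24.5 ± 8.29, Tek at 24.0 ± 8.35, Vwf at 22.4 ± 6.84 and Emcn at 20.3 ± 6.39 CPM per kb. Cdh5 exceeded Eng in 13 of 16 libraries, Eng exceeded Pecam1 in 10, and Pecam1 exceeded Tie1 and Tie1 exceeded Kdr in all 16. Kdr exceeded Flt1 in 11 libraries, Flt1 exceeded Tek in 8, Tek exceeded Vwf in 12 and Vwf exceeded Emcn in 11. The order among these lower 5 genes was therefore not the same in every mouse, and the differences between neighbours were smaller than the SD over libraries.

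The 9 genes varied together between mice of the same group, and each gene varied more before injury than after it. In WT D0 the highest value of a member exceeded the lowest by 2.53 to 3.15 times, with a median of 2.80, and in Trem2-/- D0 by 1.77 to 2.70 times, with a median of 2.01. In WT D7 that ratio was 1.27 to 1.67 and in Trem2-/- D7 it was 1.19 to 1.51. The SD on the log2 scale was larger at D0 than at D7 for all 9 members in both genotypes, beside 66.3% of all genes tested in WT and 79.0% in Trem2-/-. The median SD of the members was 0.62 in WT D0 and 0.51 in Trem2-/- D0, against a median over all genes of 0.27 and 0.24, and 12.8% and 13.0% of genes had a larger one. It was 0.23 in WT D7 and 0.21 in Trem2-/- D7, against 0.21 and 0.13 over all genes. The difference in spread between D0 and D7 is given as a description with no test.

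The mice at the ends of this range were the same for most members. WT D0 replicate 1 was the highest of the 16 libraries for 9 of 9 genes. WT D0 replicate 2 was the lowest for 6 of 9 and Trem2-/- D0 replicate 1 for the other 3. The summed level of the 9 genes was 4932, 1834, 2807 and 2185 CPM in the WT D0 mice, and 2122, 3713, 2515 and 4333 CPM in the Trem2-/- D0 mice. After injury the sums were 2422, 2961, 3534 and 2623 CPM in WT and 2866, 3494, 2811 and 3762 CPM in Trem2-/- mice. The group means of the sum were 2939 ± 1388 CPM in WT D0, 2885 ± 487 in WT D7, 3171 ± 1029 in Trem2-/- D0 and 3233 ± 469 in Trem2-/- D7 (SD, n = 4), so that they differed by less than the spread within any group.

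Genes of other cell types also varied between these mice, in orders that matched the endothelial one only in part. The mean log2 level of the 10 mural cell genes, which mark the pericytes and smooth muscle cells around vessels, was 7.47, 6.22, 6.71 and 6.82 in the 4 WT D0 mice, and 6.37, 7.27, 6.26 and 7.54 in the 4 Trem2-/- D0 mice, with none of the 10 genes at 0. The summed level of these genes ranged from 1232 to 2472 CPM in WT D0, 2169 to 2963 in WT D7, 1078 to 2931 in Trem2-/- D0 and 2256 to 2530 in Trem2-/- D7. The 6 pan-leukocyte genes, none at 0, averaged 8.59, 9.38, 9.54 and 8.80 on the log2 scale in WT D0 and 9.67, 9.32, 9.51 and 8.85 in Trem2-/- D0 mice, so that they were lowest in the mouse of each D0 group with the highest endothelial level. The leukocyte genes summed to 2678 to 5222 CPM in WT D0, 1514 to 3335 in WT D7, 3322 to 5729 in Trem2-/- D0 and 1197 to 1501 in Trem2-/- D7. The part of the cell mixture in the spread of the endothelial genes was not tested.

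**Figure D2:**
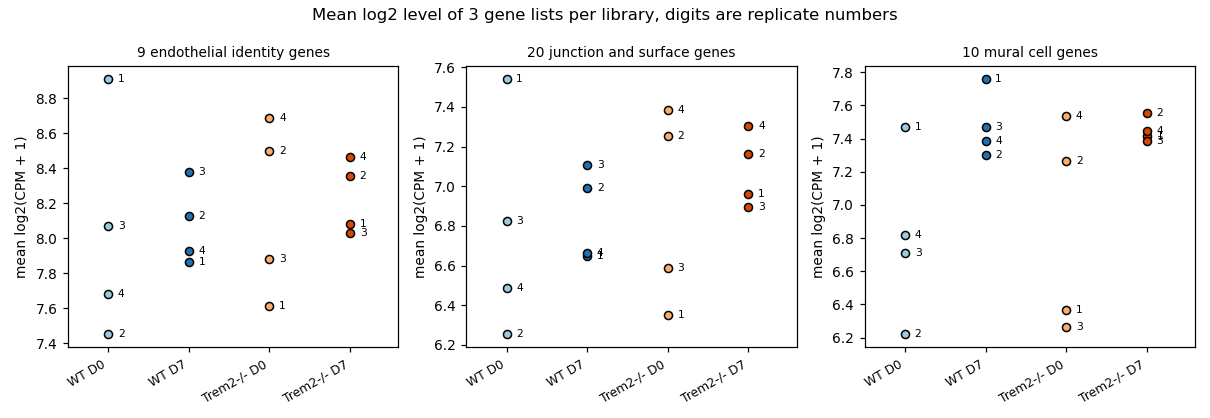
Mean log2(CPM + 1) (vertical axis) of the 9 endothelial identity genes, 20 other endothelial junction and surface genes and 10 mural cell genes in each library, by group (horizontal axis), with digits for replicate numbers. In the left and middle panels WT D0 replicate 1 is highest and WT D0 replicate 2 lowest, and in all panels the D7 points are closer together than the D0 points.

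Over the 16 libraries, Pearson's r between pairs of members on the log2 scale ran from 0.60 to 0.97 with a median of 0.88 over 36 pairs, given as a description since all genes of a library share its depth and cell mixture. Pecam1 and Tie1 were the most alike pair (r = 0.97), followed by Tek and Tie1 (r = 0.96), while the pair of Flt1 and Emcn was the least alike (r = 0.60). After the mean of each group was subtracted, the same coefficients ran from 0.87 to 0.98 with a median of 0.94. Flt1 with Emcn then stood at 0.90 and Flt1 with Cdh5 went from 0.63 to 0.92, so that the weaker likeness of Flt1 to other members lay between groups and not between mice of a group.

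The genes whose pattern was most like the mean of the members were in part on the endothelial lists. Of 13164 other genes tested, 51 (0.387%) had r above 0.9 over the 16 libraries with the mean standardized level of the 9 genes, and 11 of these 51 were on the junction and surface list or the transcription factor list. The 10 highest were F11r (0.98), Jam2 (0.97), Mmrn2 (0.97), Sox18 (0.97), Esam (0.97), Adgrl4 (0.97), Tspan12 (0.96), Robo4 (0.96), Ehd4 (0.96) and Ecscr (0.95). F11r, Jam2 and Esam encode junctional adhesion molecules, Sox18 is a transcription factor of developing vessels, Robo4 is a guidance receptor of endothelial cells, and Mmrn2 is an extracellular matrix protein of vessels. With group means subtracted, 6 of these 10 were again among the 10 most alike, joined by Adgrf5, Sox7, Tinagl1 and Sox17. Of the 20 listed junction and surface genes, 9 had r above 0.9, whereas Icam2, Mcam and Cd34 stood at 0.67, 0.52 and 0.65. Among the endothelial transcription factors the r values were 0.97 for Sox18, 0.95 for Sox7, 0.90 for Sox17 and 0.85 for Erg, but 0.06 for Fli1, -0.10 for Tal1 and -0.38 for Lyl1, which blood cells also express. Libraries, depth and cell mixture are shared by all these points, and no p-value was attached to them.

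The first question of the design was how injury changed the WT joint. The rule of the study calls a gene whose unadjusted p, here from limma, is under 0.05 and whose fold change exceeds 1.25, and adjusted p-values are Benjamini-Hochberg values over all 13173 genes tested. None of the 9 genes was called at D7 against D0 in WT mice, while 37.4% of all genes tested were. No member had an unadjusted p under 0.05, and edgeR's quasi-likelihood test and voom on the recovered reads also called 0 of 9. Log2 fold changes ran from -0.17 for Flt1 to 0.29 for Eng, with a median of 0.06 beside -0.04 over all genes. Their 95% intervals reached from -0.74 to 0.82 over the 9 genes, so that changes of up to about 1.76-fold upward and down to 0.598 of the D0 level were not excluded for a member. Eng had 389 ± 172 CPM at D0 and 446 ± 50.7 CPM at D7 (SD, n = 4), a log2 fold change of 0.29 ± 0.25 (SE) with an adjusted p of 0.38 by limma. None of the members separated D7 from D0 without overlap, whereas 22.2% of genes tested did. WT D0 replicate 1 weighed on this comparison. Without it Eng was called (log2 fold change 0.56, adjusted p = 0.045 by limma), as were 43.8% of all genes, and the median of the members became 0.36.

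In Trem2-/- mice, injury likewise gave 0 called members of 9, beside 54.5% of all genes tested, with 0 at an unadjusted p under 0.05 and 0 called by edgeR or voom. Flt1 was the lowest with a log2 fold change of -0.48 ± 0.27 (SE, 95% interval -1.06 to 0.09, adjusted p = 0.15 by limma). Emcn was the highest at 0.44 ± 0.31 (interval -0.21 to 1.09, adjusted p = 0.24 by limma), followed by Cdh5 at 0.38 ± 0.29 (interval -0.24 to 1.00, adjusted p = 0.28 by limma). The median of the 9 was 0.07 beside -0.04 over all genes. No member was free of overlap between D0 and D7, against 52.4% of genes tested, and the smallest exact two-sided permutation p over the 70 assignments of 8 mice was 0.143, for Flt1, where the smallest possible is 0.0286. Calls again turned on single D0 mice. Without Trem2-/- D0 replicate 1, Flt1 was called (-0.67, adjusted p = 0.055 by limma), as were 52.1% of all genes, and the median of the members was -0.15. Without Trem2-/- D0 replicate 4, Cdh5 was called (0.61, adjusted p = 0.081 by limma), as were 55.8% of all genes, and the median was 0.24.

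The next question was whether the loss of Trem2 changed the endothelial genes. Trem2 itself measured 2.51 to 5.61 CPM in WT D0 and 0.948 to 2.68 CPM in Trem2-/- D0 libraries, which overlapped, and 10.7 to 22.5 CPM in WT D7 against 3.42 to 4.84 CPM in Trem2-/- D7 libraries, which did not. At D0 none of the 9 genes was called between genotypes, beside 2.15% of genes tested, and the log2 fold changes ran from -0.09 for Emcn to 0.36 for Flt1 with a median of 0.15 beside 0.00 over all genes. Vwf had 343 ± 172 CPM in WT and 410 ± 123 CPM in Trem2-/- mice (SD, n = 4), a log2 fold change of 0.33 ± 0.28 (SE) with an adjusted p of 1.00 by limma. At D7 none was called either, beside 5.72% of genes tested. Means were higher in Trem2-/- than in WT mice for 8 of 9 genes, with log2 fold changes of -0.01 for Kdr to 0.27 for Emcn, a median of 0.17 beside 0.01 over all genes, and adjusted p-values of 0.89 and above by limma. All 9 values come from the same mice, in which the genes moved together, so the shared sign is not 9 separate observations. Over both comparisons between genotypes, no member had an unadjusted p under 0.05, and edgeR and voom called 0 of 9. Without WT D0 replicate 1, Flt1, Tek, Vwf and Eng were called at D0 (log2 fold changes 0.64, 0.59, 0.63 and 0.50, each with an adjusted p of 1.00 by limma), beside 3.35% of all genes, and the median was 0.42. As the 4 genes varied together, they are not 4 separate observations.

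A difference between the genotypes in the response to injury was not detectable for any member. The interaction term was called for 0 of 9 genes, beside 7.79% of genes tested, with 0 at an unadjusted p under 0.05 and 0 by edgeR or voom. It ran from -0.31 ± 0.38 (SE) for Flt1 to 0.36 ± 0.43 for Emcn on the log2 scale, with 95% intervals reaching from -1.13 to 1.28.

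**Figure D3:**
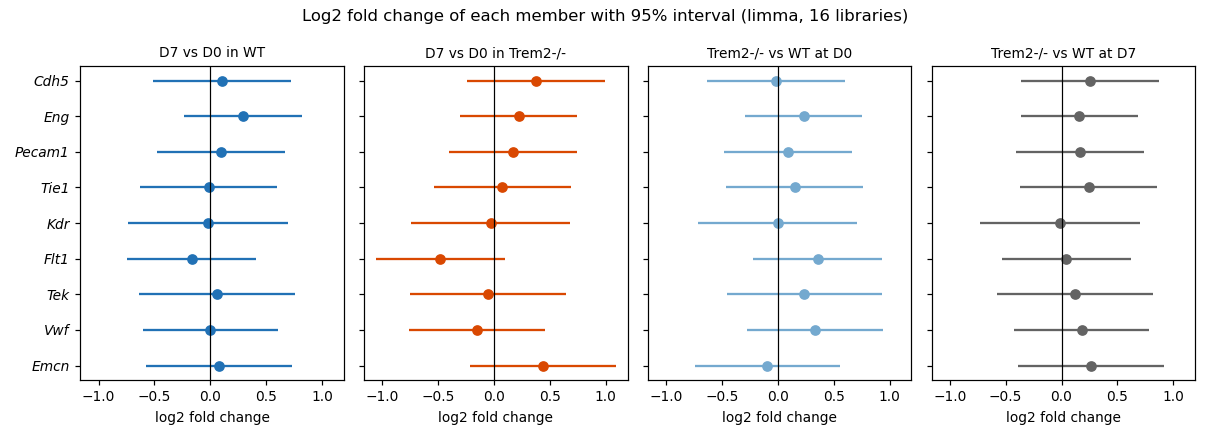
Log2 fold change (horizontal axis) of each of the 9 genes in the 4 comparisons, with points for the limma estimate from all 16 libraries and lines for the 95% interval. Every interval includes 0, and the lowest point is Flt1 at -0.48 for D7 against D0 in Trem2-/- mice.

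Since the 9 genes varied together between mice, each was also set against the mean log2 level of the other 8 in the same library, a comparison chosen after the values were seen. On this scale the spread within the D0 groups was smaller than that of the levels themselves. In Trem2-/- mice 3 members, Flt1, Emcn and Cdh5, had no overlap between D0 and D7, beside 25.1% to 25.7% of all genes. Flt1 lay 0.53, 0.59, 0.58 and 0.45 above the mean of the others in the 4 Trem2-/- D0 mice, and at -0.08, -0.15, -0.04 and -0.04 in the 4 Trem2-/- D7 mice. In WT it lay at 0.27, 0.40, 0.33 and 0.19 at D0, and at 0.17, -0.15, -0.03 and 0.23 at D7. The D0 and D7 mice were apart in Trem2-/- and overlapped in WT.

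With the mean of the other 8 as a covariate in the limma fit over the whole table, the log2 change of Flt1 in Trem2-/- mice was -0.60 ± 0.10 (SE, 95% interval -0.80 to -0.40, adjusted p = 0.00014), and 56.1% of all genes were called in that fit. Emcn rose against the others by 0.42 ± 0.11 (interval 0.18 to 0.66, adjusted p = 0.0046), with 57.1% of genes called. Its relative values were -1.69, -1.78, -2.0 and -1.84 at D0 and -1.29, -1.30, -1.57 and -1.47 at D7, with no overlap. Cdh5 rose against the others by 0.36 ± 0.12 (interval 0.11 to 0.60, adjusted p = 0.016), again with 57.1% of genes called. Its relative values were 0.76, 0.43, 0.85 and 0.94 at D0 and 1.03, 1.11, 1.09 and 1.16 at D7, also apart. Without Trem2-/- D0 replicate 2 Cdh5 was no longer called (0.24, adjusted p = 0.068 by limma) and Vwf was called instead (-0.34, adjusted p = 0.014 by limma). The exact permutation p was 0.0286 for each of the 3 genes, the smallest that 4 mice against 4 can give. Set against the same 8 members, 25.5% of all genes were free of overlap for Flt1, 25.1% for Emcn and 25.7% for Cdh5, where a gene that does not vary with the members carries their spread. Called members were thus 3 of 9, a smaller share than among all genes. The 9 relative levels of a library are tied to each other, and a fall of Flt1 against the mean of the others raises the rest by construction. In WT mice 0 of 9 genes were called in these fits, beside 40.2% of all genes in the fit for Flt1. Flt1 changed by -0.24 ± 0.10 (adjusted p = 0.066 by limma) and Eng by 0.28 ± 0.11 (adjusted p = 0.056 by limma), both with an unadjusted p under 0.05 and under the fold threshold.

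The difference between the genotypes in this relative response was called for Flt1 and Emcn at the unadjusted threshold but did not pass the adjustment. For Flt1 it was -0.36 ± 0.13 (SE, unadjusted p = 0.016, adjusted p = 0.42 by limma), with 9.73% of all genes called in the same fit. For Emcn it was 0.39 ± 0.16 (unadjusted p = 0.025, adjusted p = 0.42 by limma), with 10.3% of genes called. The number of members called ranged from 0 to 3 when single mice were left out, and both calls were lost without WT D0 replicate 4 or WT D7 replicate 4. Between genotypes at D0, Flt1 lay higher against the others in Trem2-/- than in WT mice with no overlap of the 4 and 4 values (exact permutation p = 0.0286). Set against the same 8 members, 0.296% of all genes were free of overlap. A gene that does not vary with the members carries their wide D0 spread, so this share is no measure of how unusual Flt1 is. The covariate fit gave 0.25 ± 0.10 for Flt1, called none of the 9, beside 3.46% of all genes in the fit for Flt1, and gave an adjusted p of 0.82 or more by limma for every member.

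**Figure D4:**
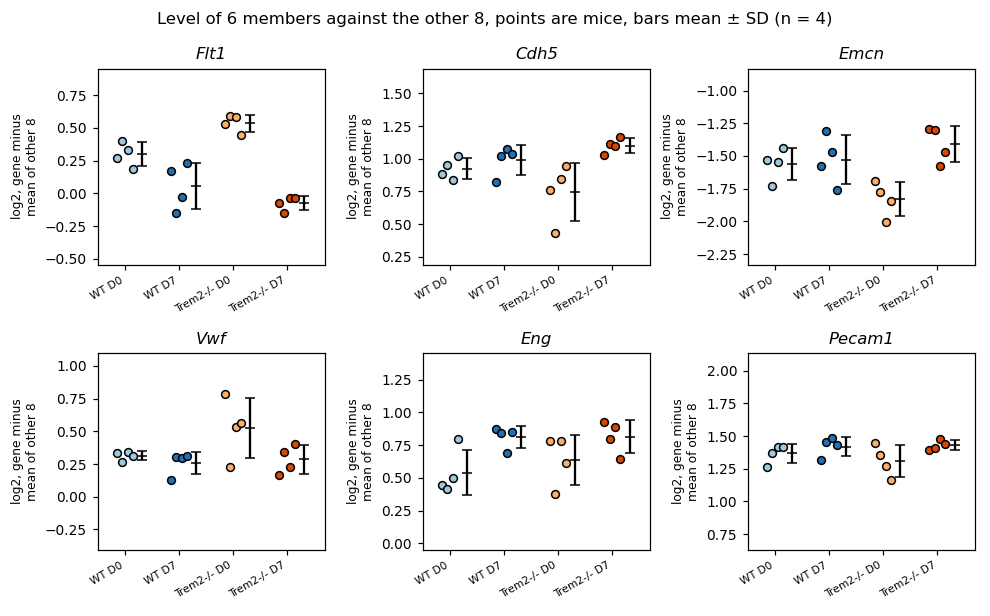
Log2 level of 6 members minus the mean of the other 8 (vertical axis, each panel spanning the same 1.5 log2 units) in each mouse of the 4 groups (horizontal axis), with bars for the mean ± SD (n = 4). The Trem2-/- D0 and D7 mice are apart for Flt1, Cdh5 and Emcn and overlap for Vwf, Eng and Pecam1.

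Other genes of the endothelial programme gave a mixed picture, taken from lists that were set by function. Of the 20 junction and surface genes, Mcam rose and Icam2 fell in both genotypes, Myct1 and Cd34 rose in Trem2-/- mice, and 18 of 20 in WT and 16 of 20 in Trem2-/- were not called. Of all genes tested, larger shares were called, 37.4% in WT and 54.5% in Trem2-/- mice. Mcam, an adhesion molecule that pericytes also carry, went from 108 ± 38.0 to 239 ± 31.2 CPM in WT (log2 fold change 1.19, adjusted p = 0.0089 by limma) and by 1.24 in Trem2-/- mice (adjusted p = 0.0023 by limma). The median of the list was 0.04 in WT and 0.07 in Trem2-/- mice, close to the members' own medians.

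Of the 12 transcription factors, 4 fell in both genotypes, namely Lyl1, Tal1, Fli1 and Gata2, and Tcf4 rose in Trem2-/- mice. The called shares of this list lay below those over all genes, 37.4% in WT and 54.5% in Trem2-/- mice. Lyl1 fell by 1.15 in WT and 1.95 in Trem2-/- mice on the log2 scale (adjusted p = 0.020 and 0.00024 by limma), and Tal1 fell by 0.95 and 1.03 (adjusted p = 0.0091 and 0.0019). These 4 factors are also made by blood cells, and the leukocyte genes fell at the same time, 6 of 6 in each genotype, with the summed levels given above. The 6 erythroid genes tested fell too, with median log2 changes of -1.33 in WT and -1.81 in Trem2-/- mice. Of 8 genes of the blood progenitor list, which include Tek, 7 in WT and 6 in Trem2-/- mice were not called. The part of any blood cells in the fall of the 4 factors was not tested. Sox7, Sox17, Sox18 and Erg, which are more restricted to endothelium, were not called, with log2 changes of -0.35 to 0.32.

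Ligands and signalling partners of the members were counted next. In the VEGF axis, Vegfd and Nrp2 rose in both genotypes and Pgf, a ligand of Flt1, rose in Trem2-/- mice, while 5 of 7 genes in WT and 4 of 7 in Trem2-/- were not called and Vegfa was not analysed here. Its calls, 2 of 7 and 3 of 7, are smaller shares than the 37.4% and 54.5% over all genes, and its median in Trem2-/- mice was 0.07, the same as that of the members. Vegfd went from 1.65 ± 0.619 to 4.26 ± 0.812 CPM in WT (log2 fold change 1.00, adjusted p = 0.018 by limma), and Pgf from 10.6 ± 2.62 to 28.4 ± 10.2 CPM in Trem2-/- mice (1.30, adjusted p = 0.0022 by limma). Among the 6 angiopoietin and angiopoietin-like genes, 3 rose in WT and 4 in Trem2-/- mice, beside the same 37.4% and 54.5% over all genes. The angiopoietin-like genes Angptl2 and Angptl1, which are not ligands of Tek, rose by 2.32 and 2.23 in WT and by 3.83 and 3.69 in Trem2-/- mice (adjusted p = 0.0025, 0.0074, 2e-05 and 6.1e-05 by limma). Angpt2, the context-dependent antagonist of Tek, was called in Trem2-/- mice only (0.75, adjusted p = 0.024 by limma), with 0.41 in WT, and the interaction term of 0.34 had an adjusted p of 0.84 by limma.

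Of 11 genes around endoglin and ALK1, 3 rose and 2 fell in WT mice, and 6 rose and 2 fell in Trem2-/- mice. Over all genes tested, 37.4% were called in WT and 54.5% in Trem2-/- mice, so calls were common throughout. The receptor ALK1 itself, encoded by Acvrl1, went from 182 ± 50.0 to 132 ± 32.6 CPM in WT and from 226 ± 22.4 to 135 ± 11.5 CPM in Trem2-/- mice (log2 fold changes -0.45 and -0.74, adjusted p = 0.076 and 0.0038 by limma). Its target Id1 fell by 0.54 and 0.94 on the log2 scale (adjusted p = 0.078 and 0.0025 by limma). Smad6, on the same list, was called higher in both genotypes, and Smad1, Bmpr2 and Tgfbr1 were called higher in Trem2-/- mice. The receptor Tgfbr2 and the signal transducer Smad5, which many cell types use, rose by 0.58 and 0.56 in WT and by 0.83 and 0.87 in Trem2-/- mice (adjusted p = 0.032, 0.039, 0.0017 and 0.0014 by limma). Gdf2 and Bmp10, the ligands of the complex, were not analysed here.

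Markers of vessel types were called in part, and the shares of the arterial, venous and lymphatic lists lay below the 37.4% and 54.5% over all genes. The capillary list lay above these shares, with 4 of 9 genes not called in WT and 3 of 9 in Trem2-/- mice. Of the 9 capillary genes, Apln, Aplnr and Esm1, which mark sprouting endothelium, rose in both genotypes, and Car4 and Gpihbp1, which mark quiescent capillaries, fell in both. Cd300lg was called lower in Trem2-/- mice only (-0.97, adjusted p = 0.032 by limma). Apln went from 5.49 ± 2.94 to 31.6 ± 9.52 CPM in WT (log2 fold change 2.42, adjusted p = 0.0010 by limma) and from 4.35 ± 2.72 to 33.9 ± 1.37 CPM in Trem2-/- mice (2.88, adjusted p = 4.4e-05 by limma). Gpihbp1 went from 49.1 ± 27.0 to 22.5 ± 4.15 CPM in WT and from 63.1 ± 29.4 to 24.8 ± 8.87 CPM in Trem2-/- mice (-0.94 and -1.24, adjusted p = 0.073 and 0.013 by limma). Of the 9 arterial genes Unc5b rose and Bmx fell in both genotypes. Of the 5 venous genes only Ephb4 was called with injury, in WT mice (0.72, adjusted p = 0.058 by limma). Of 4 sinusoidal genes tested Stab1, which macrophages also express, rose in both genotypes, and Fcgr2b fell in Trem2-/- mice. Of 6 lymphatic genes only Pdpn, which fibroblasts also express, was called, upward in both genotypes.

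Of the 5 adhesion genes of activated endothelium, Icam1 fell in both genotypes (log2 fold changes -0.58 and -0.54, adjusted p = 0.081 and 0.069 by limma), and Selp, Sele, Vcam1 and Ackr1 were not called with injury. At D7, Vcam1 and Ackr1 were higher in Trem2-/- than in WT mice at the unadjusted threshold (0.55 and 0.79), with adjusted p-values of 0.63 and 0.68 by limma. These were 2 of the 5 genes, beside 5.72% of all genes tested in that comparison. Of the 10 mural genes, 5 rose in each genotype, led by Cspg4 at 2.48 and 2.65, and Myh11 fell in Trem2-/- mice. Beside the counts for injury in this paragraph, 37.4% of all genes tested were called in WT and 54.5% in Trem2-/- mice. Genes of other joint cells rose with the mural genes. Of 8 fibroblast genes, 6 rose in WT and 7 in Trem2-/- mice (median log2 changes 1.76 and 2.79), and of 6 chondrocyte genes 5 rose in each (2.89 and 3.62), with no gene of either list at 0. The fibroblast genes summed to 11511 to 55775 CPM in WT D0, 85224 to 123291 in WT D7, 8393 to 18159 in Trem2-/- D0 and 105838 to 152941 in Trem2-/- D7, and the chondrocyte genes to 902 to 13894 CPM in WT D0, 27931 to 72270.2 in WT D7, 1396 to 4404 in Trem2-/- D0 and 26334 to 40728 in Trem2-/- D7. Their part in the changes of the mural and angiopoietin-like genes was not tested. Of the megakaryocyte and platelet genes, 1 rose and 4 fell in WT and 2 rose and 5 fell in Trem2-/- mice out of 11 that include Vwf.

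**Figure D5:**
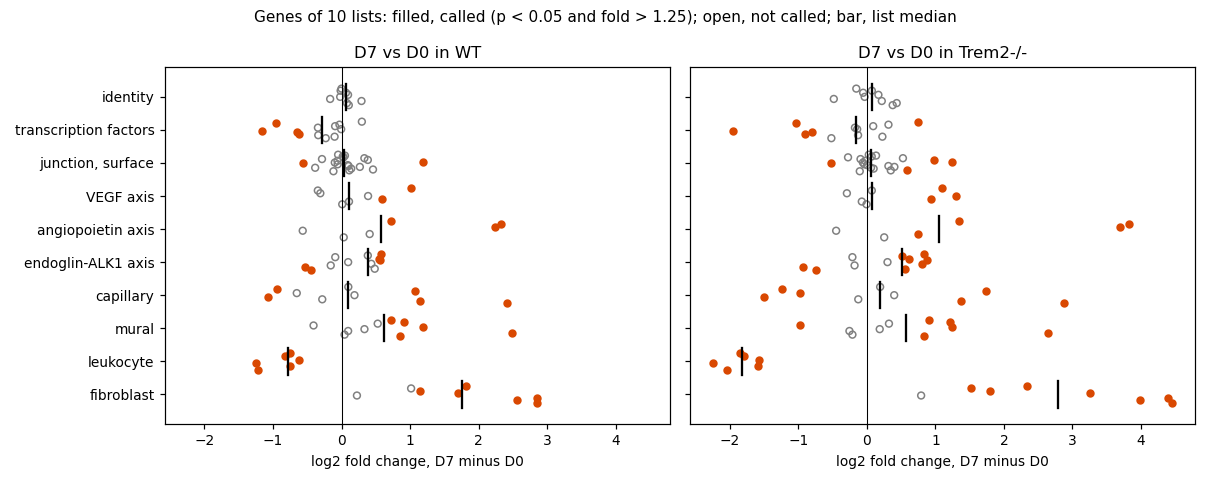
Log2 fold change from D0 to D7 (horizontal axis) of the genes of 10 lists (vertical axis) in WT and Trem2-/- mice, with filled points for genes called at an unadjusted p under 0.05 and a fold over 1.25, open points for the others and a bar for the list median. The identity genes lie within 0.48 of 0 with no filled point, while the angiopoietin, capillary, mural, leukocyte and fibroblast lists hold filled points far from 0.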

How the data were processed

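The deposited table held, for 16 libraries, a normalized signal per gene, which the authors made by alignment to mm10 with STAR, counting with featureCounts and TMM scaling to CPM with edgeR, as the methods and the submitters' processing notes give it. Tool versions upstream are not given in the sources used here. The values stepped in whole reads (100% of values within 0.01 read), which gave 11567073 to 32867818 reads per library (median 16399898), so counting error was small beside the spread between mice. The sample labels and the methods name different library kits, and whether reads were counted by strand is not given in the sources used here. Of 13734 rows, 1 duplicated an earlier row and was dropped.

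The 13173 genes that reached 1 CPM in 4 or more libraries were tested with limma 3.58.1 (trended empirical Bayes, R 4.3.3) on log2(CPM + 1), with the 4 groups as one factor and no replicate block, so fold changes are on that scale and understate those of low genes. A call needed an unadjusted p under 0.05 and a fold change over 1.25. The fit was tested on simulated data for D7 against D0 in WT: of 200 genes changed 2-fold among 13063, 97% were called, and 4.47% of the unchanged genes. Exact two-sided permutation tests used 70 assignments of 8 mice. edgeR 4.0.16 and voom on the recovered reads were alternatives, with 5025 and 5098 genes called for D7 against D0 in WT and 7276 and 7222 in Trem2-/-. Levels per kilobase used the union of exons in GENCODE M21 (GRCm38). Promoter sequences are RefSeq's, build GRCm38.p6.

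The members and the gene lists were chosen with earlier results of these data known, so the lists are descriptions and none was given a test of its own. All 9 members were named with every value. From other lists up to 3 called genes per comparison with the largest change were named. Tcf4, Gpihbp1, Cd300lg, Myh11, Erg, Sox7, Sox17, Sox18, Angpt2, Acvrl1, Smad1, Smad6, Bmpr2, Tgfbr1, Selp and Sele were added after their values were seen. The comparison of each member with the other 8 was chosen after the data were seen. No pair of replicates agreed within sampling noise (chi-square per degree of freedom at least 10.43). Replicate numbers were not taken to pair the mice. Deviations of same-numbered mice correlated at -0.51 to 0.41, over 0.1 in 7 of 16 pairs. Between WT D0 and WT D7 they correlated at 0.05, 0.20, 0.41 and 0.31. Mice with different numbers were not compared, so these values cannot decide whether the mice were paired.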

Additional observations from a re-analysis of the deposited data

Results flagged for a closer look

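Among 72 groups of 4 mice (the 9 members on the log2 scale and against the other 8, in 4 groups), 3 held a mouse far from the rest by Dixon's criterion, where chance gives about 1 in 20 groups, or 3.6. Kdr in WT D7 replicate 3 was 276 CPM against 199 to 204 CPM in the other 3 mice, a gap of 0.925 of the range of log2 values. Vwf against the other 8 members was 0.13 in WT D7 replicate 1 and 0.29 to 0.31 in the rest, a gap of 0.917 of the range. Eng against the other 8 was 0.69 in WT D7 replicate 3 and 0.84 to 0.87 in the rest, a gap of 0.83 of the range.

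Responses to injury that differed between the genotypes at an unadjusted p under 0.05, none past the adjustment, were those of Flt1 (-0.36) and Emcn (0.39) against the other 8 members. Among 88 genes of the related lists the interaction term was called for Angptl2, at 1.51 (unadjusted p = 0.028, adjusted p = 0.58 by limma), and for Pgf, at 0.91 (unadjusted p = 0.048, adjusted p = 0.61 by limma). These 2 of 88 are a smaller share than the 7.79% of all genes tested that were called. Angptl2 ranged from 43.9 to 355 CPM among the WT D0 mice. Before injury it was called lower in Trem2-/- than in WT mice (-1.02, unadjusted p = 0.036 by limma), not past the adjustment, beside 2.15% of all genes tested. At D7 the genotypes differed by 0.50 (unadjusted p = 0.28 by limma), which was not called.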

How the results depend on the processing

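Under the 10 alternatives that kept all mice, 0 of 9 members were called in each comparison without a covariate. The counts of all genes called moved by more than 1.5 times for Trem2-/- against WT at D0, where 283 genes became 164 with a pseudocount of 5, 149 with only those groups in the fit and 466 with edgeR's quasi-likelihood test on recovered reads, and at D7, where 753 became 1366 with only those groups in the fit. Fits of only the groups compared estimate the spread from those groups alone. The median SD over all genes was 0.27 in WT D0 and 0.24 in Trem2-/- D0, and 0.21 in WT D7 and 0.13 in Trem2-/- D7. The fit of all 4 groups used one estimate of the spread per gene, so its intervals at D7 also carry the wider D0 spread of the members. Causes of these moves were not tested. Against the other 8 members, the interaction kept Flt1 and lost Emcn under quantile normalization (1 member called in place of 2).

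Leaving out single mice, members called ranged from 0 to 1 for D7 against D0 in each genotype, from 0 to 4 for Trem2-/- against WT at D0, and were 0 in each of the other comparisons. Genes called ranged from 107 to 1231 for Trem2-/- against WT at D0 (of the WT D0 mice, 441 without the first, 1231 without the second, 442 without the third and 107 without the fourth, and 542 without Trem2-/- D0 replicate 4), from 480 to 1123 at D7 (480 without WT D7 replicate 3) and from 609 to 2236 for the interaction (leaving out WT D0 replicate 2 gave 2236 genes, WT D0 replicate 4 gave 609 and WT D7 replicate 3 gave 662). Medians of the members ranged from -0.16 to 0.36 for injury in WT, -0.15 to 0.24 in Trem2-/-, -0.04 to 0.42 and 0.09 to 0.29 between genotypes at D0 and D7, and -0.34 to 0.20 for the interaction. Against the other 8 members, calls ranged from 0 to 1 for injury in WT (Eng, without WT D0 replicate 1 or 4), stayed at 3 in Trem2-/- (Vwf, at -0.34, in place of Cdh5, at 0.24, without Trem2-/- D0 replicate 2), ranged from 0 to 1 for genotype at D0 (Emcn, without WT D0 replicate 2 or Trem2-/- D0 replicate 1) and from 0 to 3 for the interaction (Emcn lost also without Trem2-/- D0 replicate 3 or D7 replicate 1 or 2, Cdh5 gained without Trem2-/- D0 replicate 4).

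With a replicate block, 4891, 7094, 279, 757 and 1009 genes were called in the 5 comparisons and 0 of 9 members, so the block changed no call of a member.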
